A study of Mus musculus with 12 samples.

Results

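Gm40775, Gm30989 and Gm39266 are long non-coding RNA genes that lie at 3 regulators of immunity on the mouse genome. Gm40775 lies beside Il22, Gm30989 lies at Stat6 and Gm39266 lies beside Irf8. Each was identified by the RefSeq accession in its array probe, matched without the version number. The probes hold version 1, whereas RefSeq lists version 3 for Gm30989 and version 2 for Gm39266. Whether the probes of these genes match the later versions, whose positions are given below, was not tested. The genes are 3 of the 2514 tested features that carry a gene name and 3 of the 72515 features tested in all. They were selected on the scaled log2 difference between OVA and control spleens at day 28 and its adjusted p, with earlier results of these data in view, among non-coding genes near immune regulators. Their day 28 values are therefore given as a description with no test, and the day 14 difference, which that choice did not use, is tested. The day 14 arrays are not wholly independent of the choice, because all 12 arrays set the residual variance behind the day 28 adjusted p.

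Spleen RNA of female BALB/c mice, aged 6 weeks, was measured on 12 one-colour Agilent arrays. OVA (ovalbumin, an egg-white protein used to sensitise mice) was given into the peritoneal cavity at 2 mg/kg on days 1, 3 and 5, and control mice received the normal saline vehicle. Spleens were taken on day 14 or day 28, with 2 control and 4 OVA arrays on each day. No group carries a genetic change, and no allergen challenge of the airways is described in the labels. The labels do not say whether each array holds the RNA of 1 mouse, so p-values measure the spread between these samples. All 4 controls lay on one slide, the OVA arrays of day 14 on another and those of day 28 on the last, so slide and OVA treatment cannot be told apart on either day.

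Interleukin-22 is a cytokine made by type 17 and type 22 helper T cells and by group 3 innate lymphoid cells, and it acts on epithelial cells. STAT6 is the transcription factor that carries the signal of interleukin-4 and interleukin-13 to the nucleus, where it drives type 2 helper T cell differentiation and the class switch to IgE. IRF8 is a transcription factor required for the development of classical type 1 dendritic cells, and it also acts in monocytes and B cells. A long non-coding RNA is transcribed but not translated, and some such RNAs act on genes next to them; no function is assigned here to any of the 3.

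Gm40775 (gene ID 105245300) occupies chr10:118188087-118189210 on the minus strand of GRCm38.p6 and spans 1124 bp. Il22 lies on the plus strand at chr10:118204584-118210047. The pair runs head to head, with start sites 15374 bp apart. Gm30989 (gene ID 105245328) occupies chr10:127648256-127653028 on the minus strand and spans 4773 bp. It lies wholly inside Stat6, which occupies chr10:127642955-127660987 on the plus strand, so it is antisense to that gene rather than next to it. The start sites of this pair are 10073 bp apart, and RefSeq lists 5 transcripts of Gm30989. Whether its probe also reads Stat6 transcripts was not tested. Gm39266 (gene ID 105243306) occupies chr8:120767475-120770155 on the minus strand and spans 2681 bp. Irf8 lies on the plus strand at chr8:120736358-120756694. Here the genes run tail to tail, with 10781 bp between them and start sites 33797 bp apart. The position relative to the coding gene thus differs in kind: divergent, internal and antisense, and convergent.

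**Figure D1:**
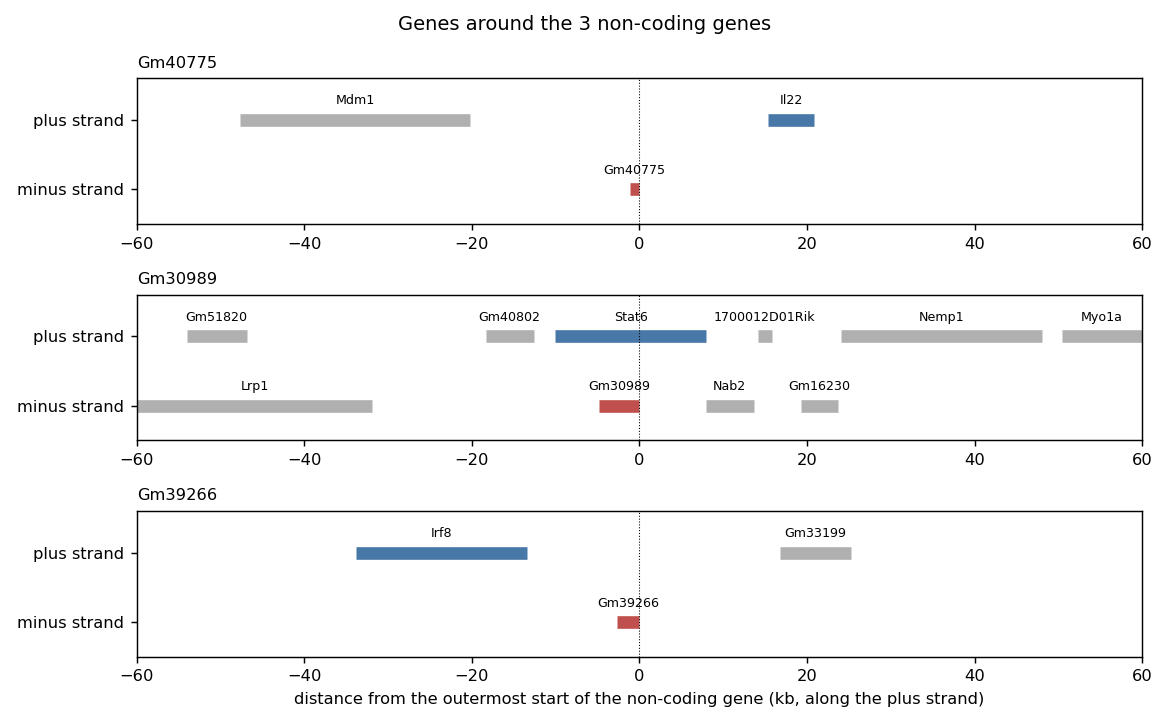
Map of the 3 loci, with distance from the start site of each non-coding gene on the x axis in kb and genes drawn as bars on the plus or minus strand; genes whose strand the sequence table does not give are left out. Gm40775 and Il22 start 15374 bp apart, Gm30989 lies inside Stat6, and Gm39266 lies past the end of Irf8.

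The sequence around each start site is shown because the genes differ in what lies there: the Gm40775 window faces Il22, the Gm30989 window lies inside Stat6, and the Gm39266 window lies on the side away from Irf8. Each run holds 250 bases before the outermost start site and 50 bases from it on, read 5′ to 3′ on the minus strand of GRCm38.p6 (RefSeq). The windows are chr10:118189161-118189460 for Gm40775, chr10:127652979-127653278 for Gm30989 and chr8:120770106-120770405 for Gm39266. Capitals mark matches to the motifs named after them.
Gm40775: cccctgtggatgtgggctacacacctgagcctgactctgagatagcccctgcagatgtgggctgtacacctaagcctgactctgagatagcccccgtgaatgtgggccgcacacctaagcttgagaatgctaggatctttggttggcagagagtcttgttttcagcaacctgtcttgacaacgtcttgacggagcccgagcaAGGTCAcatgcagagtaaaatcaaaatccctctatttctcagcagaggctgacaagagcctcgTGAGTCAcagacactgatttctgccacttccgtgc
Gm30989: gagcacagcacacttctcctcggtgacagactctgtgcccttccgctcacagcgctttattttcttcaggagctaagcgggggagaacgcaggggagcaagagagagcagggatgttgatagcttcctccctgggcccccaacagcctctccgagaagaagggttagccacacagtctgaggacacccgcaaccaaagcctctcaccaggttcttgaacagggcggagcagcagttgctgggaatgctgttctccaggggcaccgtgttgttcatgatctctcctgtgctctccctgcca
Gm39266: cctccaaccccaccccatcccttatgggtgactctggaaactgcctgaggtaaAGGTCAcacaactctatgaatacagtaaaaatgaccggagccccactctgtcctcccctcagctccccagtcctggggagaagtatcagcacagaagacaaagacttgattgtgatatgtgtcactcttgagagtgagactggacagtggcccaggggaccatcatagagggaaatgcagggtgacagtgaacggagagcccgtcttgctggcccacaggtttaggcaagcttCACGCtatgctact

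Both strands were searched for 8 short motifs of factors that act in the pathways of the coding neighbours. In the Gm40775 window AGGTCA, a half-site of ROR and of other nuclear receptors, began at position -48, with the start site at 0. A match to the AP-1 motif, TGANTCA, began at position 15. The Gm39266 window held AGGTCA at position -197 and the reverse complement of the AHR core, GCGTG, at position 36. AGGTCA occurred in 16.3%, TGANTCA in 7.81% and GCGTG in 32.4% of the 32851 RefSeq start-site windows of that length. The STAT motif TTCNNNGAA (8.3% of windows) and its form with a 4-base spacer (6.95%) were in none of the 3 printed windows. The same held for the IRF motif, GAAA and GAAA with 2 bases between (3.44%), the ETS-IRF motif, GGAA and GAAA with 2 bases between (2.72%), and the GATA motif GATAA (25.4%). The printed Gm30989 window held none of the 8 motifs, and a window at a start site further into that gene held the reverse complement of GATAA. The base composition was similar, with a GC content of 52.7%, 57.7% and 53%.

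Levels below are log2 of the processed signal minus that of the array's 75th percentile, so 0 is the level of that percentile and a difference of 1 is a doubling. Levels of different genes are not compared, because each comes from a different probe. In a whole spleen, fewer cells of a type and less RNA per cell cannot be told apart. None of 38 marker genes of spleen cell types, and none of Il22, Stat6 and Irf8, could be read through a named probe. The tissue label and the cell make-up could therefore not be checked by name, and no coding neighbour was measured by name here.

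The array signal as a whole differed between groups. The 75th percentile ran from 484.2 to 549.4 signal units on the OVA arrays of day 28 and from 267.4 to 370.8 on the other 8 arrays. Between 57.5% and 80% of spots were well above background. The lowest share was that of OVA day 14 replicate 2, and the next lowest was 72.4%. The spike-in control probes (8 of 10 used) were 1.6-fold brighter on the day 28 OVA arrays than on their controls, close to the 1.58-fold of the percentile. At day 14 the percentile was 0.29 lower on the log2 scale in OVA than in control arrays and the spike-ins 0.05 lower. All spots of the 3 genes were well above background except 1 of the 2 Gm30989 spots on OVA day 14 replicate 2, and none was an outlier.

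Gm40775, divergent from Il22, was highest in the day 28 OVA spleens and lowest in the day 28 controls. Control spleens of day 14 read -1.96 and -1.89, and the 4 OVA spleens of that day read -1.91, -1.98, -1.83 and -1.84. At day 28 the controls read -1.99 and -2.08, and the OVA spleens -1.57, -1.48, -1.60 and -1.56. The day 14 groups overlapped, whereas all 4 day 28 OVA spleens lay above the other 8 arrays. The OVA and control groups of day 28 were without overlap in 42.2% of all features. Both day 28 controls lay below every array of day 14, the nearer at -1.99 against -1.98. No share over all features was computed for a group apart from all other arrays. The day 14 difference, OVA minus control, was 0.04 ± 0.09 (SE, 2 control and 4 OVA arrays; 95% interval -0.16 to 0.23; limma adjusted p = 0.894). The day 28 difference, on which the gene was picked, was 0.48 ± 0.09, a 1.39-fold higher level.

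Gm39266, past the 3′ end of Irf8, had the most spread and the largest difference of the 3. Day 14 controls read -1.77 and -1.49, and the OVA spleens of that day -1.87, -1.28, -1.18 and -1.30. Day 28 controls read -1.41 and -1.1, and the OVA spleens -0.66, -0.65, -0.54 and -0.28. OVA replicate 1 of day 14 lay below both of its controls and the other 3 above them, so those groups overlapped. Every day 28 OVA spleen lay above both of its controls, as in 19.1% of all features. The difference was 0.22 ± 0.19 at day 14 (95% interval -0.20 to 0.65; limma adjusted p = 0.637). At day 28, the contrast behind its choice, it was 0.72 ± 0.19, a 1.65-fold higher level.

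Gm30989, antisense inside Stat6, went the other way on the scaled values. It read -2.65 and -2.84 in the day 14 controls and -2.58, -2.97, -2.47 and -2.70 in the day 14 OVA spleens. It read -2.61 and -2.57 in the day 28 controls and -3.02, -3.05, -3.21 and -3.03 in the day 28 OVA spleens. The day 14 OVA spleens spanned the range of their controls. The day 28 OVA spleens lay below theirs without overlap, as in 23.1% of all features. The lowest day 14 OVA spleen, at -2.97, was replicate 2, the array with the fewest spots well above background. The difference was 0.06 ± 0.13 at day 14 (95% interval -0.23 to 0.36; limma adjusted p = 0.865). At day 28, where the gene was picked, it was -0.49 ± 0.13, a 1.4-fold lower level.

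**Figure D2:**
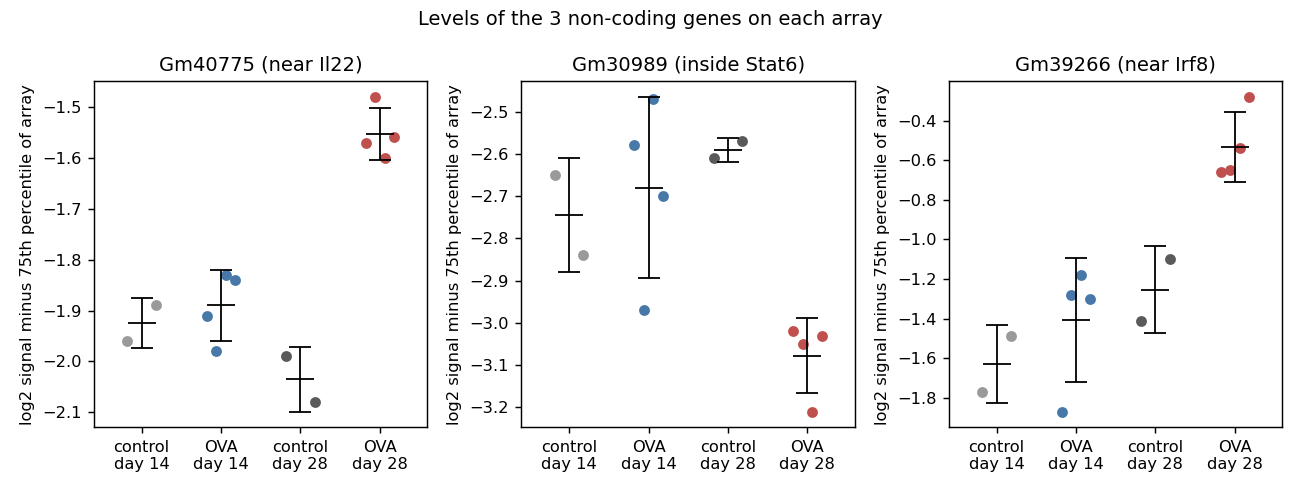
Scaled level of each gene (y axis, log2 signal minus the 75th percentile of the array) in the 4 groups (x axis), with 1 point per array and the group mean ± SD. The day 28 OVA arrays of Gm40775 (-1.60 to -1.48) and Gm39266 (-0.66 to -0.28) sit above their controls and those of Gm30989 (-3.21 to -3.02) below.

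None of the 3 passed the day 14 test, in which 0.0607% of the 72515 features were called at a limma adjusted p under 0.05 (40 or 0.0552% higher, 4 or 0.00552% lower). At an unadjusted p under 0.05 the day 14 share was 14.2%, and none of the 3 reached it either. Groups without overlap made up 22.4% of features at day 14 (14.8% higher, 7.51% lower) and 0 of the 3 genes. The day 14 interval of Gm39266 reaches 0.65, near its day 28 difference of 0.72. With the arrays scaled to the spike-ins in place of the percentile, the day 14 differences were -0.21 for Gm40775, -0.18 for Gm30989 and -0.02 for Gm39266, so the direction at day 14 depends on the scaling. That scaling called 442 features at day 14, of which 7.24% were higher, against 44 of which 90.9% were higher with the percentile. At day 28, 14.2% of all features were called (7.5% higher, 6.65% lower), 30.4% had an unadjusted p under 0.05, and 42.2% had OVA and control groups that did not overlap (19.1% higher, 23.1% lower). All 3 genes met both criteria because that contrast chose them, and nothing is read from it. Of the 10265 features called at day 28, 53% were higher, and 23.2% of 27347 were higher after normexp background correction. The adjusted p-values that picked the 3 genes were 0.00815 for Gm40775, 0.0344 for Gm30989 and 0.0317 for Gm39266 in the present limma fit. Just inside that threshold among named genes lay 1700020D12Rik (a difference of 0.55, adjusted p 0.0499) and Gm32069 (0.33, 0.0499). Just outside it lay Gm33404 (0.54, 0.0507) and Gm39203 (-0.34, 0.051).

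The signals before scaling separate the genes further. Gm40775 read 75 to 95.5 signal units in the controls, 67.8 to 80.3 in the day 14 OVA spleens and 159 to 187 in the day 28 OVA spleens. Gm39266 read 109 to 148, 78.7 to 126 and 311 to 452 in the same order. Gm30989 read 44.8 to 59.1, 34.2 to 51.4 and 52.3 to 67.2. Before scaling, the day 28 OVA spleens were thus 2.2-fold above their controls for Gm40775, 2.6-fold for Gm39266 and 1.13-fold for Gm30989. The 75th percentile of the same arrays was 1.58-fold higher. The spike-in probes were 1.6-fold brighter on these arrays, so the unscaled folds hold the brightness of the arrays and are not read as changes in RNA. For Gm30989 the unscaled signal was not lower at day 28, but it was lower relative to the percentile and to the spike-ins. With spike-in scaling the day 28 differences were 0.46, 0.70 and -0.50 for Gm40775, Gm39266 and Gm30989. The 2 references differed by only 0.016 on the log2 scale at day 28. Spike-in scaling could therefore not have turned a sign there, and nothing is read from the likeness.

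**Figure D3:**
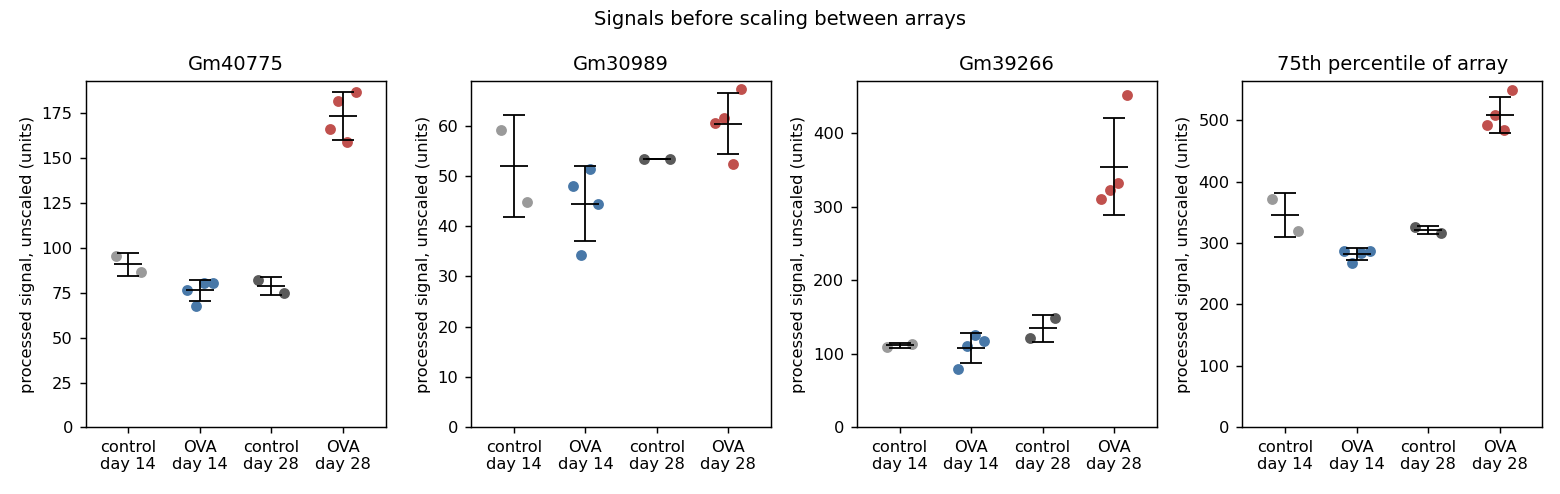
Processed signal before scaling (y axis, signal units) for the 3 genes in the 4 groups (x axis), with 1 point per array and the group mean ± SD. The last panel shows the 75th percentile of each array, which was also higher on the day 28 OVA arrays (484.2 to 549.4) than on all others (267.4 to 370.8). The signals therefore hold the brightness of the arrays. The day 28 OVA arrays of Gm40775 (159 to 187) and Gm39266 (311 to 452) stand above all others, whereas those of Gm30989 (52.3 to 67.2) overlap their controls.

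The order of the group means was set beside the spread within groups, again as a description because it holds the day 28 arrays. For Gm40775 the order from low to high was day 28 control (-2.03 ± 0.06, SD, n = 2), day 14 control (-1.92 ± 0.05, n = 2), day 14 OVA (-1.89 ± 0.07, n = 4) and day 28 OVA (-1.55 ± 0.05, n = 4). The control and OVA groups of day 14 overlapped. The first step, 0.11 between the control groups, and the last, 0.34 to day 28 OVA, were without overlap and exceeded the residual SD of 0.060. The first step rests on 2 arrays per group, and its SE in the model was 0.10, about as large as the step. The share of all features without overlap was taken only for OVA against control of the same day, so other steps have no such share beside them. For Gm39266 the order was day 14 control (-1.63 ± 0.20, n = 2), day 14 OVA (-1.41 ± 0.31, n = 4), day 28 control (-1.26 ± 0.22, n = 2) and day 28 OVA (-0.53 ± 0.18, n = 4). Only its last step, 0.72, was without overlap, against a residual SD of 0.244. That step is the day 28 contrast that picked the gene, in which 19.1% of all features were higher in OVA without overlap. For Gm30989 the order was day 28 OVA (-3.08 ± 0.09, n = 4), day 14 control (-2.74 ± 0.13, n = 2), day 14 OVA (-2.68 ± 0.21, n = 4) and day 28 control (-2.59 ± 0.03, n = 2). Its first step, 0.33, was without overlap, the other neighbours overlapped, and the residual SD was 0.15. The median residual SD over all tested features was 0.173, and Gm40775 lay at percentile 0.7 of all features, Gm30989 at 38.2 and Gm39266 at 74.3, a spread that also entered the choice of the genes.

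Between the days, the OVA spleens of day 28 exceeded those of day 14 by 0.34 ± 0.07 (SE) for Gm40775 and 0.87 ± 0.16 for Gm39266, and lay lower for Gm30989, at -0.40 ± 0.11. The saline spleens, which shared one slide, differed by -0.11 ± 0.10 for Gm40775, 0.38 ± 0.22 for Gm39266 and 0.15 ± 0.15 for Gm30989. For Gm39266 the saline difference had the same sign as that between the OVA groups, and for the other two the opposite sign. The OVA effect at day 28 minus that at day 14 was 0.44 ± 0.13 for Gm40775, 0.50 ± 0.27 for Gm39266 and -0.55 ± 0.19 for Gm30989. These differences include the arrays that picked the genes, and they have no test. With normexp background correction the Gm40775 difference between the OVA groups was 0.05 and its OVA effect between days 0.17, and with spike-in scaling they were 0.43 and 0.67. Spike-in scaling gave an OVA effect between days of -0.33 for Gm30989. With the array position as a block the Gm39266 difference between the saline groups was 0.09 and its OVA effect between days 0.78. Over the alternatives run, none of these differences changed sign.

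The paired spots of a probe give the reading error within an array. The median difference between the spots was 0.11 for Gm40775, 0.20 for Gm30989 and 0.08 for Gm39266 on the log2 scale. The highest was 0.80, for Gm30989 on OVA day 14 replicate 3, which is larger than that gene's day 28 difference. The readings around the spots of the 3 genes departed from the other arrays by -0.16 to 0.12 on any array. On control day 14 replicate 1, which had 1 of 486 blocks of spots more than 1 log2 unit off, that departure was -0.10 to 0.05.

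**Figure D4:**
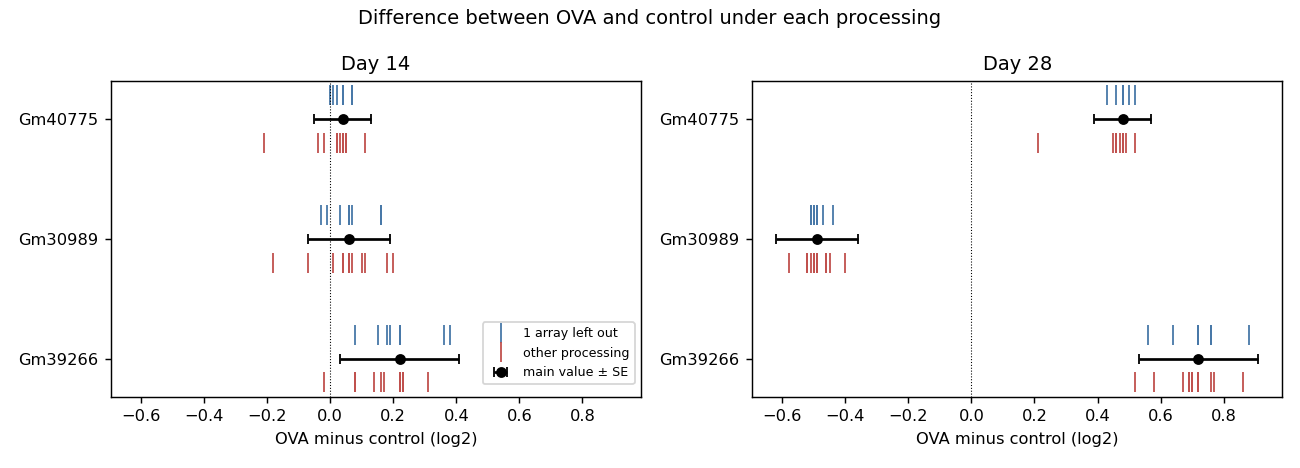
OVA minus control (x axis, log2) for each gene on day 14 and day 28, with the value as reported ± SE and a tick for each alternative, blue for an array left out and red for other processing. The day 14 ticks of all 3 genes lie on both sides of 0, and the day 28 ticks stay on one side of 0, with the lowest of Gm40775 at 0.21. The genes were picked on the day 28 contrast, so nothing is read from its constant sign.

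Few other genes of these loci could be read. Within 200 kb the RefSeq table lists 16 genes around Gm40775, 23 around Gm30989 and 16 around Gm39266, of which 3, 17 and 7 are protein-coding. A single other named gene was tested at each locus, and each is a long non-coding RNA. Gm32663, 117417 bp from Gm40775, differed by 0.16 ± 0.22 at day 14 and -0.07 ± 0.22 at day 28 (limma adjusted p = 0.788 and 0.873). 1700012D01Rik, 14095 bp from Gm30989, differed by -0.19 ± 0.11 and -0.04 ± 0.11 (limma adjusted p = 0.476 and 0.841). Gm26878, 109848 bp from Gm39266, differed by 0.24 ± 0.16 and 0.15 ± 0.16 (limma adjusted p = 0.522 and 0.581). Neither day's test was passed by any of these neighbours. Gm32663 and Gm26878 were well above background on only 3 of the 4 day 14 OVA arrays, so a small change in them could be missed. Ifngas1, a non-coding RNA 56141 bp from Ifng and on the far side of it from Il22, differed by -0.15 ± 0.20 at day 14 and 0.15 ± 0.20 at day 28 (limma adjusted p = 0.769 and 0.666).

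The pathways of the coding neighbours were followed through the non-coding genes within 100 kb of the genes of 3 lists, since the coding genes themselves have no named probe. The lists were drawn up with earlier results of these data known. Gm40775, Gm30989 and Gm39266 also meet that distance and are left out of the counts, having been chosen because they passed at day 28. At day 14 limma called 0 of 12 such genes for the interleukin-22, interleukin-10 family and type 17 list, 0 of 13 for the STAT6, interleukin-4 and type 2 list, and 0 of 21 for the IRF8, myeloid and dendritic cell list. At an unadjusted p under 0.05 these counts were 2, 0 and 6, beside 14.2% of all features. The list medians at day 14 were 0.03, 0.07 and -0.13 on the log2 scale, beside 0.03 over all features. At day 28, where 14.2% of all features were called, 1 gene of the first list was higher, none of the second was called, and 1 of the third was higher and 2 were lower. At an unadjusted p under 0.05 the limma counts were 3 of 12, 2 of 13 and 6 of 21, beside 30.4% of all features. The medians were 0.09, -0.09 and -0.12, beside -0.03 over all features. Over the lists together, 8.7% of 46 genes were called at day 28, without the 3 chosen genes.

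Zeb2os, antisense at Zeb2 (a transcription factor of myeloid and lymphoid differentiation), rose at day 28 by 0.84 ± 0.16 (limma adjusted p = 0.00891), from -2.11 to -1.85 in the controls to -1.34 to -0.97 in the OVA spleens. Slc2a4rg-ps, a transcribed pseudogene within the Zbtb46 locus (a transcription factor of classical dendritic cells), fell, with a difference of -0.69 ± 0.14 (limma adjusted p = 0.0111). Gm39170, overlapping Irf2 (an interferon regulatory factor), also fell, with a difference of -0.56 ± 0.12 (limma adjusted p = 0.012). Gm35956, 68196 bp from Jak1 (a kinase of cytokine receptors), rose by 0.42 ± 0.11 (limma adjusted p = 0.0313). These 4 genes are named because they passed at day 28, out of lists drawn up with earlier results known. Nothing further is therefore read from their day 28 p-values. None of the 4 passed at day 14, where Zeb2os differed by -0.37, Slc2a4rg-ps by -0.01, Gm39170 by -0.19 and Gm35956 by 0.33. Each call was lost in a fit without 1 of the day 28 controls. Such a fit has 1 control array at day 28, and calls over all features fell in it as well. Without control day 28 replicate 1 the differences were 0.71 for Zeb2os, -0.47 for Gm39170 and 0.29 for Gm35956. Without control day 28 replicate 2 that of Slc2a4rg-ps was -0.51.

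**Figure D5:**
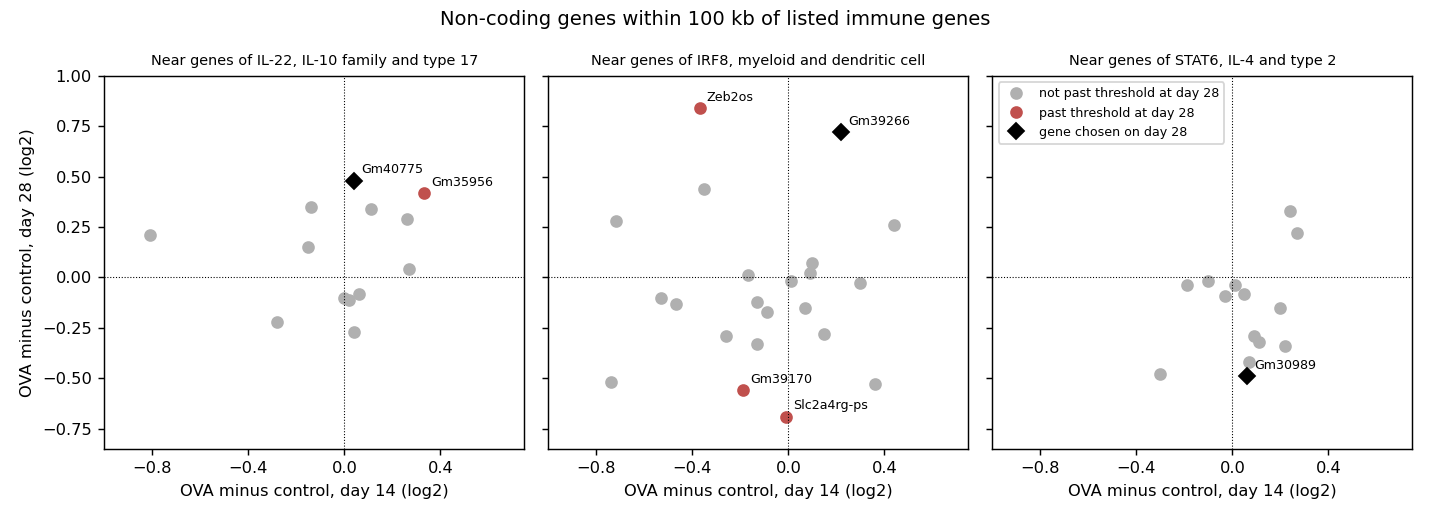
OVA minus control at day 14 (x axis, log2) against day 28 (y axis, log2) for the non-coding genes within 100 kb of each list's genes, 1 point per gene, with the 3 genes described here marked. Zeb2os, at 0.84, is highest at day 28 and Slc2a4rg-ps, at -0.69, lowest.

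The named genes whose levels ran most like each of the 3 were taken by Pearson r over the 12 arrays, out of 2513, as a description in which the groups, slides and scaling are shared. For Gm40775 these were Gm34062 on chromosome 7 (r = 0.944), A730094K22Rik on chromosome 9 (0.927) and Tvp23bos on chromosome 11. Gm34062 differed between OVA and control by 0.24 at day 14 and 0.75 at day 28, and A730094K22Rik by 0.13 and 1.01. Tvp23bos was well above background on the 4 day 28 OVA arrays alone, so its likeness rests on background readings on the other 8 arrays and no value is read from it. For Gm30989 they were Gm38850 on chromosome 6 (r = 0.881), Gm40172 on chromosome 3 (0.867) and Gm35715 on chromosome 9 (0.862). These differed by 0.10, 0.09 and 0.29 at day 14 and by -0.54, -0.63 and -0.77 at day 28. For Gm39266 they were Gm38873 on chromosome 6 (r = 0.977), Gm36903 on chromosome 16 (0.947) and Gm28166 on chromosome 9 (0.942). These differed by 0.25, 0.19 and 0.45 at day 14 and by 1.1, 1.11 and 0.92 at day 28. All 9 are long non-coding RNAs, and none lies on the chromosome of the gene it resembles. The shares of the 2513 genes with these traits were not computed, so nothing is read from either.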

How the data were processed

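Spleen RNA was measured on 12 arrays. The deposited scanner files give spot intensity on a linear scale, background-corrected; per the file headers the program was Agilent Feature Extraction 11.5.1.1, while the submitters' processing notes name version 9.1. A further table deposited by the authors, in log2, holds none of the 3 genes and served only as an alternative for the counts. Its columns differ from the scaled signal by one constant per array.

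From the log2 processed signal of a spot, that of the array's 75th percentile was subtracted. Control and outlier spots were left out, and spots of a probe averaged. A named gene was read by its probe of highest mean, through RefSeq accessions (4658 of 13019 probes matched; GRCm38.p6). A feature was tested when its spots were well above background on every array of a group. One limma model (limma 3.58.1, R 4.3.3) held the 4 groups with 8 residual degrees of freedom, with Benjamini-Hochberg adjustment and a threshold of 0.05. The fit was tested on simulated data. The number of arrays limits the precision.

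The members and lists were chosen with earlier results of these data known. The genes named were the 3 members, the 3 named genes most correlated with each, tested neighbours within 200 kb, list genes past the threshold (at most 4 per list and direction) and Ifngas1. Alternatives covered background correction, scaling, filter, model, blocks and left-out arrays, and each spot alone, which was added after seeing the data.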

Additional observations from a re-analysis of the deposited data

Results flagged for a closer look

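In 40 groups of 4 OVA arrays, the highest or lowest array was compared with the rest of its group, and chance flags about 1 in 20 such groups. Gm30989 on OVA day 28 replicate 3 was at -3.21, apart from -3.05 to -3.02 on the other arrays of its group, with a gap of 0.848 of the range. 1700012D01Rik, the tested neighbour of Gm30989, was at -0.32 on OVA day 28 replicate 2, where the others were at -0.57 to -0.56. Gm38850 was at 3.01 on OVA day 14 replicate 3, against 2.71 to 2.74. Gm28166 was at 1.57 on OVA day 28 replicate 1, against 1.93 to 1.98. These values fall on 4 different arrays, and their cause was not tested.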

How the results depend on the processing

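The day 14 differences of the 3 genes passed no threshold under any alternative (adjusted p 0.248 to 0.998 for Gm40775, 0.206 to 0.991 for Gm30989, 0.351 to 0.961 for Gm39266), but their sign turned. Gm40775 was -0.21 with spike-in scaling, -0.02 with a percentile taken over well-measured probes (all spots above background) and -0.04 from the first spot. Gm30989 was -0.18 with spike-in scaling and -0.07 from the first spot, and -0.03 to 0.16 with an array left out, the lowest without control day 14 replicate 2. Gm39266 was -0.02 with spike-in scaling. The cause was not tested. At day 28 no sign turned: Gm30989 ran from -0.58 to -0.40 and Gm39266 from 0.52 to 0.88, while Gm40775 was 0.21 with normexp. That contrast picked the 3 genes, so nothing is read from its constant sign. Gm30989 has no value where every spot must be well above background on all arrays, and averaging probes was not run, each gene having 1.

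With the replicate block the day 14 values were 0.02, 0.04 and 0.08 for Gm40775, Gm30989 and Gm39266, and those of day 28 were 0.47, -0.52 and 0.58. Deviations of day 14 and day 28 OVA arrays with the same number correlated at -0.05 to 0.08. The highest correlation with another number was 0.05 to 0.25. Control and OVA arrays were not compared in this way, so whether the numbers pair them was not tested.

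Features called at day 14, 44 as reported, were 168 with normexp, 442 with spike-in scaling, 12 with the percentile over well-measured probes, 146 with quantile normalization, 2 without a filter, 231 with the all-array filter, 208 with trend and robust settings, 2 with the array position as block and 23 in the deposited table. limma called 0 with the compared groups alone, array weights or the replicate block (8477, 6043 and 9392 at an unadjusted p under 0.05). Leaving out an array gave 5 to 1983, the highest without control day 14 replicate 2 (30.7% higher, against 90.9% as reported), and every omission but that of control day 14 replicate 1 moved the count by over 1.5 times. At day 28, 10265 became 27347 with normexp, 6504 with spike-in scaling, 6009 without a filter, 6833 with the replicate block, 4260 with the position block (64.7% higher) and 6116 in the deposited table. Leaving out an array gave 2057 (without control day 28 replicate 2, 78.2% higher) to 12490, with 3515 without control day 28 replicate 1 and 5947, 5908 and 6170 without OVA day 28 replicates 1, 2 and 3. The list counts at day 28 ran from 0 to 3, 0 to 5 and 1 to 9 in the order of the report, and the call of Gm35956 was lost in 12 of 25 alternatives.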
